A study of Mus musculus with 36 samples.

Results

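Homeobox, forkhead (Fox), Sox and T-box genes, with the Gata factors, encode DNA-binding proteins that direct the formation of tissues in the embryo. The genes described here are all those whose symbol has the prefix Hoxa, Hoxb, Hoxc, Hoxd, Dlx, Irx, Nkx, Pax, Lhx, that of the sine oculis genes (such as Six2), Tbx, Foxa to Foxs, Sox, Gata, Meis, Pitx, Prrx, Msx or Pou followed by a digit, and does not end in "os". The authors listed 13958 peaks over 3 histone marks, annotated to 9822 genes, and 92 of these peaks were annotated to 61 of the factor genes. H3K9ac had 55 peaks in 35 factor genes, of 8115 peaks in 5911 genes. H3K9me3 had 22 peaks in 19 factor genes, of 5374 peaks in 3951 genes, and H3K4me3 had 15 peaks in 14 factor genes, of 469 peaks in 456 genes.

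The chromatin came from primary aortic smooth muscle cells of wild-type C57BL/6N mice and of mice with a whole-body knockout of CSE, the hydrogen sulfide-producing enzyme cystathionine gamma-lyase. All cells, wild type included, had received 1 µM angiotensin II, a peptide that constricts vessels, for 24 hours, so no untreated cells enter any comparison. Each mark had 3 immunoprecipitated and 3 input libraries per genotype, and the labels do not say whether these were separate animals or cultures. The authors' tables give group means only, so no value per library, no spread between libraries and no depth can be shown, and the p-values and false discovery rates (FDR) are the authors' own. A table lists the peaks that the authors selected as differing (p of 0.05 by its title), and none of the listed peaks has a p under 0.0001. An unlisted factor gene may therefore carry the mark equally in both genotypes, lack it, or differ more strongly than any peak listed, and a largest or smallest value below is that of the listed peaks only. For that reason the cell type could not be checked by missing markers. Of the 8 smooth muscle markers searched for, 6 had listed H3K9ac peaks in the authors' deposited table, 6 of their 8 peaks being lower in the knockout. The leukocyte markers Cd14 and Aif1, 2 of 5 searched for, had 3 listed H3K9ac peaks, all of them higher in the authors' deposited table, where 22.8% of all listed peaks were higher. Endothelial and fibroblast markers had 2 of 5 genes listed each, with 1 peak lower and 1 higher. Adipocyte markers had 1 of 4 genes listed, with 1 lower peak, and neural crest markers had 0 of 4. The part of other cell types in the results below was not tested.

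Many of these factors work as position and lineage codes. Hox proteins, encoded in clusters, mark positions along the body axis and bind DNA with partners of the Meis and Pbx type, while Fox, Gata, Tbx and Pitx proteins act in the mesoderm and neural crest from which vessel walls form. Their promoters are often rich in CpG dinucleotides and, in cells where the gene is silent, held by Polycomb proteins rather than by H3K9me3. H3K9ac and H3K4me3 are usual at active promoters, and H3K9me3 is usual in heterochromatin.

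The sequences below are the 250 bases before the start of factor genes whose RefSeq promoter window lay whole inside a listed peak, so that they show the DNA under the results that follow. Gata2 and Tbx18 stand for promoters with lower H3K9ac in the knockout, Nkx3-2 for one with higher H3K9ac, Hoxa3 for one with both H3K9ac and H3K4me3 listed, and Dlx1 for one with H3K4me3 at the start and H3K9me3 in the same peak further in. Each is written 5′ to 3′ on the strand of its gene, from RefSeq on GRCm38.p6, with capitals marking CpG dinucleotides.
Gata2, upstream start: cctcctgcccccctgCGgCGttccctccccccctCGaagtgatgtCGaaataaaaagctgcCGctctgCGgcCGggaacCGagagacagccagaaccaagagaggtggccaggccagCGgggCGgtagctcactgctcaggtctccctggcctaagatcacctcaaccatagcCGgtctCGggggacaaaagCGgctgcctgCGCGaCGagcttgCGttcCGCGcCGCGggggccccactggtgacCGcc
Gata2, downstream start: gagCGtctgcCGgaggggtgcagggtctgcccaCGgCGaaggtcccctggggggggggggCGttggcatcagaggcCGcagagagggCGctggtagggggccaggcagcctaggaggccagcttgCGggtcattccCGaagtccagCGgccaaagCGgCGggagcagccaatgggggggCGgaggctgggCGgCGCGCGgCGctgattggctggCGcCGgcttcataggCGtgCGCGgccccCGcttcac
Tbx18: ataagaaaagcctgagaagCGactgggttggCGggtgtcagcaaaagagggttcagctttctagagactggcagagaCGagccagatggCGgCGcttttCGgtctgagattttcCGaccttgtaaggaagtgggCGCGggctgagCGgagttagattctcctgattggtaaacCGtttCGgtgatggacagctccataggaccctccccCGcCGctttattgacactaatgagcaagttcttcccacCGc
Nkx3-2: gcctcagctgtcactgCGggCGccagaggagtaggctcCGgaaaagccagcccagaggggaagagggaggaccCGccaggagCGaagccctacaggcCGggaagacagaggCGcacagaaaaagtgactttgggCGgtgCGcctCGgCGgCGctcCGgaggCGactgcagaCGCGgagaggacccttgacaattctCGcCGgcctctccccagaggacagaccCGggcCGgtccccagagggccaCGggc
Hoxa3: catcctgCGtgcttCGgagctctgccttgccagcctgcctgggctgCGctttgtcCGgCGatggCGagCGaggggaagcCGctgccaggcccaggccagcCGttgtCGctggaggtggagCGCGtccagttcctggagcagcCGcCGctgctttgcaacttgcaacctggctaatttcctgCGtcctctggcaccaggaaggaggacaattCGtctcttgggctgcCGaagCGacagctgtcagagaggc
Dlx1: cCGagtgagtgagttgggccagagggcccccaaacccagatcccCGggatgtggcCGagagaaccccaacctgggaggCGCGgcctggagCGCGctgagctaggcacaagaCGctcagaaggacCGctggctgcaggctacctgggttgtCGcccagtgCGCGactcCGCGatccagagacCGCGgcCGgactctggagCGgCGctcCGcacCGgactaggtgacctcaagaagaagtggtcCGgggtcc
The Gata2 sequences lie at chr6:88193641-88193890 and chr6:88198414-88198663 on the plus strand and hold 22 and 24 CpG dinucleotides. The Tbx18 sequence is chr9:87731261-87731510 (minus strand, 15 CpG), and the Nkx3-2 sequence is chr5:41764221-41764470 (minus strand, 21 CpG). Hoxa3 is at chr6:52213068-52213317 (minus strand, 18 CpG) and Dlx1 at chr2:71529195-71529444 (plus strand, 22 CpG). The ratio of observed to expected CpG was between 0.69 and 0.84 in these 6 stretches, and the Nkx3-2 value, 0.71, lay within the range of the others.

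H3K9ac was lower in the knockout at most listed factor peaks, as it was at most listed peaks of any gene. By the authors' deposited table, 44 of the 55 factor peaks were lower and 11 higher, which is 80.0% lower (exact 95% binomial interval 67.0% to 89.6%, counting error only). Among all 8115 listed peaks 77.2% were lower, and weighting the chromosomes as the factor peaks were distributed gave 79.9%, so the direction of these genes was close to that of the table. An FDR under 0.05 was reached by 13 factor peaks, 10 lower and 3 higher, or 23.6% against 16.6% of all listed peaks. By gene, 26 of 35 had only lower peaks, 8 had only higher peaks, and Foxp1 had both. All 9 genes with exactly 2 peaks had both in 1 direction, but the same share was not counted over all genes of the table. Some of these pairs, as at Pou2f2 and Meis2, were neighbouring peaks.

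The listed factor peaks were wider and sat more often at promoters than the table as a whole. Promoters held 33 of the 55 (60.0%), against 44.9% of all listed peaks, and 28 of those 33 were lower (84.8%, against 79.3% of all promoter peaks) in the authors' deposited table. Introns held 16 factor peaks, 11 lower (68.8%, against 74.5% of all intron peaks) and 5 higher. All 5 intergenic peaks were lower (interval 47.8% to 100%), against 69.4% of all intergenic peaks. The median width was 1104 bp against 719 bp, and the median signal per length was 70.1 against 59.7 normalised reads per kb. The median fold of the lower peaks was 2.20, next to 2.19 for all lower peaks. These counts describe peaks that had already been chosen for differing, and the share of factor genes that differ is a separate quantity. Of the 197 protein-coding genes of these families in the RefSeq table, 35 (17.8%) had a listed H3K9ac peak, against 18.1% of all coding genes.

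**Figure D1:**
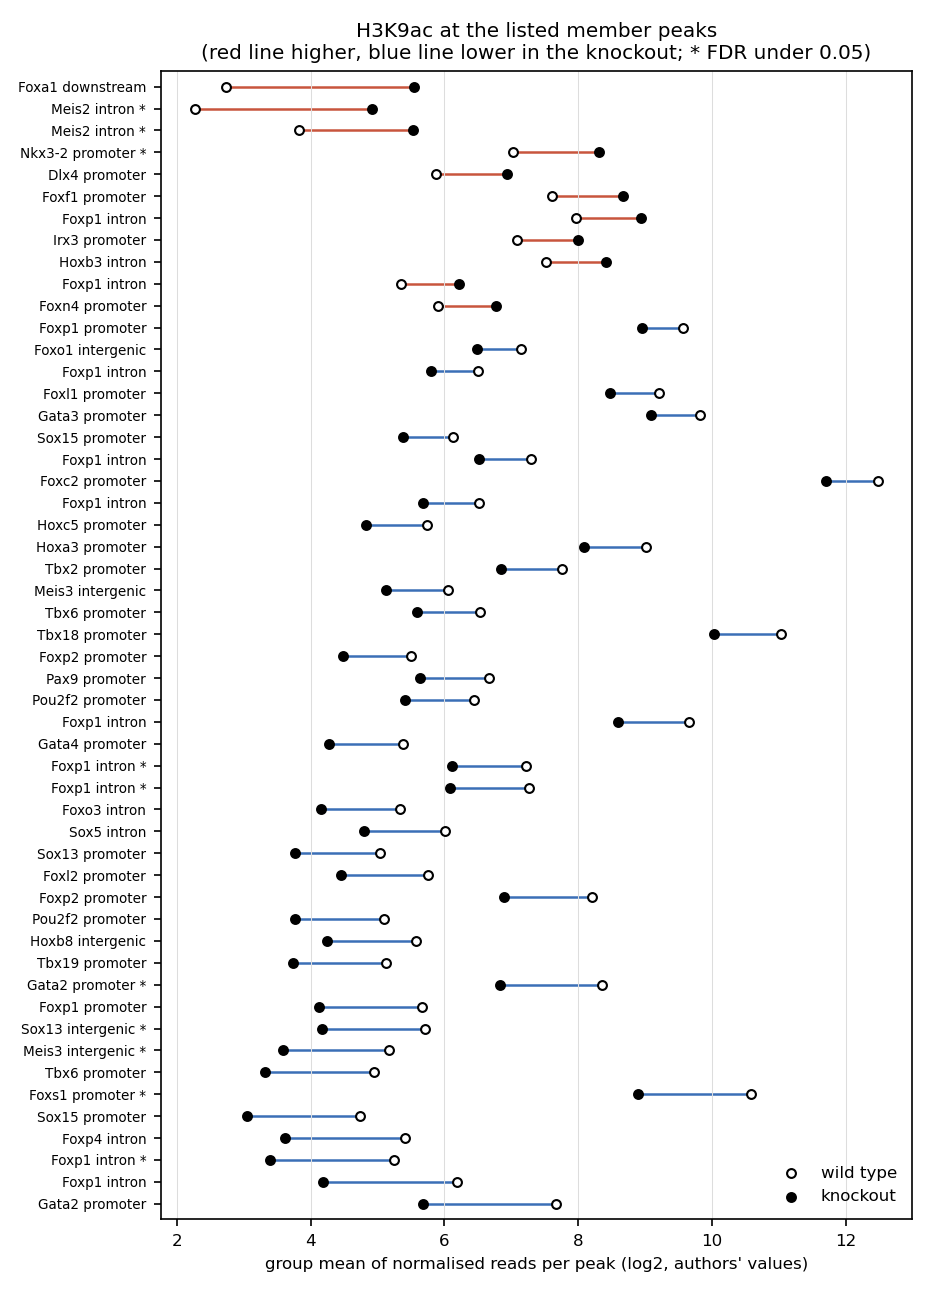
Group means of H3K9ac at 52 of the 55 listed factor peaks, as log2 normalised reads per peak from the authors' deposited table; open circles are wild type, filled circles knockout, rows run from the most increased to the most decreased peak, and no error bars can be drawn because values per library are not in use. Lines are blue (lower in the knockout) at 41 of these and red (higher) at 11, and the asterisks mark the 10 shown with an FDR under 0.05.

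All 4 Gata peaks were lower, where 77.2% of all listed H3K9ac peaks were. Gata2, a factor of blood and endothelial development, had a promoter peak at chr6:88198030-88199907 with log2 means of 6.83 in the knockout and 8.35 in the wild type (difference -1.52, FDR 0.0137, authors' deposited table). The peak at its upstream start, chr6:88193266-88194540, had the largest decrease of any H3K9ac factor peak, from 7.67 to 5.68 (4-fold), and the authors' deposited table gives it an FDR of 0.169. The upstream and downstream Gata2 sequences printed above lie in these peaks. Neither of the other Gata genes reached the FDR limit. Gata3, a factor of lymphocytes and of neural crest derivatives, had a promoter peak of 3754 bp with means of 9.09 and 9.82 (FDR 0.294) in the authors' deposited table. Gata4, a cardiac and gut mesoderm factor, had a small promoter peak with means of 4.28 and 5.38 (FDR 0.317, authors' deposited table). Pax9, a paired-box gene of the somites and pharyngeal pouches, was lower at 5.63 against 6.67 without reaching the FDR limit (0.11 in the authors' deposited table).

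The T-box and Sox genes were likewise lower at every listed H3K9ac peak, next to 77.2% of all listed peaks. Such small counts do not set these families apart from the table. The 5 T-box peaks belonged to 4 genes, and none had an FDR under 0.05. Tbx18, which marks epicardial and mural cell precursors, carried the strongest of them per length, at 261 normalised reads per kb against 47.8 to 85.4 in the others. Its 6022 bp promoter peak held 1046 normalised reads in the knockout and 2091 in the wild type (log2 difference -1.0, FDR 0.149) in the authors' deposited table. Tbx6, a factor of the presomitic mesoderm, had the smallest p, with log2 means of 5.59 and 6.53 (FDR 0.109) and a second start-site peak at 3.32 and 4.95 (FDR 0.206) in the authors' deposited table. Tbx2 and Tbx19 differed by -0.93 and -1.38 on the log2 scale in the authors' deposited table. Among the 5 Sox peaks, in 3 genes, Sox13 had an intergenic peak 27.6 kb from its start with means of 4.17 and 5.71 (FDR 0.0246) and a promoter peak with a log2 difference of -1.28 (FDR 0.314), by the authors' deposited table. Sox15 was lower at a pair of promoter peaks, by -0.75 and -1.70 in log2, and Sox5 in intron 1 by -1.21, with no FDR under 0.05 in the authors' deposited table.

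The Meis genes, whose products bind DNA together with Hox proteins, went in opposite directions. Meis2 was higher at 2 neighbouring peaks about 110 kb from its start: log2 means were 4.91 in the knockout and 2.27 in the wild type at the outer peak (FDR 0.0326), and 5.53 and 3.83 at the inner peak (FDR 0.0252), in the authors' deposited table. The authors place both in intron 10 of 10, and both lie outside the RefSeq span of Meis2. Meis3 was lower at 2 intergenic peaks, 7.96 kb and 8.76 kb from its start, with log2 differences of -1.59 (FDR 0.0466) and -0.94 (FDR 0.18) in the authors' deposited table. Pou2f2, a POU factor of lymphocytes, was lower at a pair of adjoining promoter peaks by -1.04 and -1.33 in log2, with FDRs of 0.165 and 0.25 in the authors' deposited table.

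The genes with only higher H3K9ac peaks were Foxa1, Foxf1, Foxn4, Dlx4, Hoxb3, Irx3, Meis2 and Nkx3-2. Nkx3-2, a repressor of chondrocyte maturation in the sclerotome, had the promoter peak with the smallest FDR among them: 317 normalised reads in the knockout and 130 in the wild type (log2 8.31 and 7.02, FDR 0.0296) in the authors' deposited table. Dlx4 had log2 means of 6.94 and 5.88 (FDR 0.122), and Irx3 had 7.99 and 7.09 (FDR 0.182), in the authors' deposited table. The largest increase, 7.01-fold, was at a 427 bp peak downstream of Foxa1 with 46.9 normalised reads in the knockout and 6.68 in the wild type (FDR 0.249) in the authors' deposited table. Neighbouring peaks split much as the table did. Within 100 kb, 7 of the 11 higher peaks had listed H3K9ac peaks of other genes, and only 3 of the 13 pairs so formed (23.1%) had a higher neighbour, next to 22.8% higher among all listed peaks. Of the 44 lower peaks 25 had such neighbours, and in 38 of 46 pairs (82.6%) the neighbour was lower, next to 77.2% of all. A neighbour of several factor peaks is counted with each of them.

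Fox genes supplied 24 of the 55 peaks, 19 lower and 5 higher, close to the 77.2% lower among all listed peaks. Foxs1, a forkhead gene known from pericytes and the neural crest, had log2 means of 8.90 in the knockout and 10.58 in the wild type across a 5096 bp promoter peak, a 3.23-fold decrease (FDR 0.0375, authors' deposited table). Its signal ranked at 69 of 8115 peaks. The metabolic and stress factors Foxo1 and Foxo3 were lower by -0.66 and -1.18 in log2, with FDRs of 0.223 and 0.173 in the authors' deposited table. Foxp2 and Foxp4, paralogs of Foxp1, were lower as well, Foxp2 by -1.32 (FDR 0.0727) and -1.03 (FDR 0.235) at different starts and Foxp4 by -1.79 (FDR 0.12) in an intron, per the authors' deposited table.

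Foxp1, a repressor with roles in heart and immune cells, held 12 H3K9ac peaks, more than any other factor gene. Only 6 of 5911 genes in the table had 12 or more, and the median gene had 1. The peaks were spread over 491 kb of the 597 kb gene on chromosome 6, 10 of them in introns and 2 at internal starts that the authors annotate as promoters. Of the 12, 10 were lower and 2 higher, where 84.0% of all listed H3K9ac peaks on chromosome 6 were lower. Whether the whole gene shifted in common was not tested. An FDR under 0.05 was reached by 3 peaks, all lower: chr6:99275324-99276426 (log2 6.09 and 7.26, FDR 0.00879), chr6:98949281-98951005 (6.11 and 7.22, FDR 0.0139) and chr6:99188105-99188568 (3.39 and 5.25, FDR 0.0478), in the authors' deposited table. The 2 higher peaks, both in introns, had log2 differences of 0.87 (FDR 0.125) and 0.97 (FDR 0.127) in the authors' deposited table. The peak at chr6:99171094-99174029, with means of 8.94 and 7.97 in log2 reads, lay between lower peaks on both sides. A pair of further peaks within the gene, annotated to the predicted genes Gm49348 and Gm20696, were lower by -1.25 and -0.97 in the authors' deposited table. No H3K9ac peak was listed at the 5′ end of the gene, where a 5617 bp H3K4me3 peak was. Without Foxp1, 34 of 43 factor peaks were lower (79.1%), so the share did not rest on this gene.

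**Figure D2:**
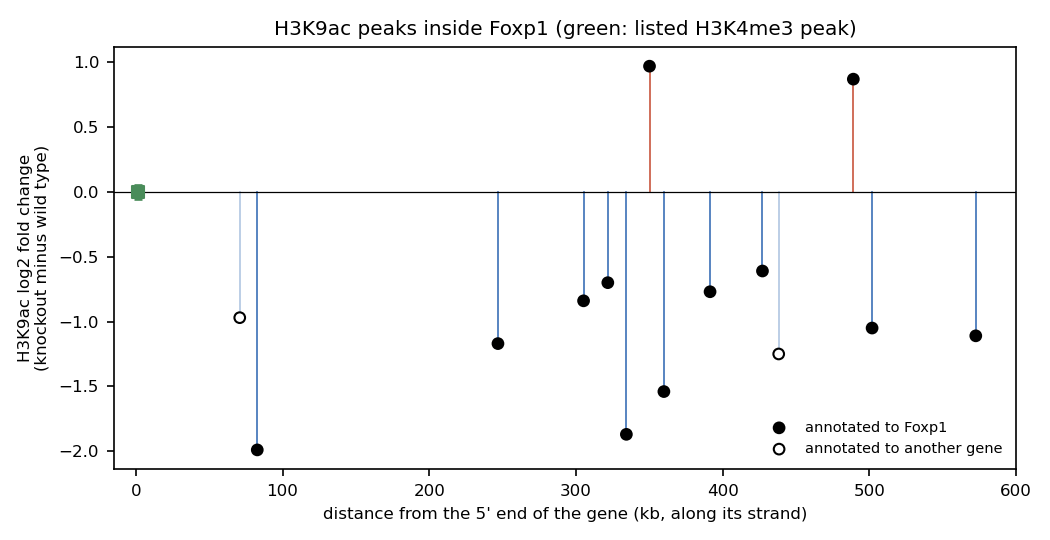
H3K9ac log2 fold change (knockout minus wild type, vertical axis, authors' values) of each listed peak against its distance in kb from the 5′ end of Foxp1 along the gene's strand; filled points are peaks annotated to Foxp1, open points peaks annotated to another gene, and the green square is the listed H3K4me3 peak, drawn at 0. The 10 lower peaks run along most of the gene and the 2 higher ones, at 0.87 and 0.97, stand between them.

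The Foxf1, Foxc2 and Foxl1 genes lie within 46.3 kb on chromosome 8, with Mthfsd between Foxf1 and Foxc2, and their listed peaks had different directions. Foxc2, needed for arterial and lymphatic vessels and for the aortic arch, carried the strongest H3K9ac signal of the whole table (rank 1 of 8115), over a peak of 12046 bp. Its normalised reads were 3327 in the knockout and 5713 in the wild type, a log2 difference of -0.78 at p 0.038 and FDR 0.282 in the authors' deposited table. Per kb it held 375 reads, which ranked at 9, so the height as well as the width was large. Foxl1, a mesenchymal forkhead gene next to it, was lower by a similar amount, 8.48 against 9.21 in log2 (FDR 0.285, authors' deposited table). Foxf1, a factor of visceral and lung mesenchyme, was higher, 8.67 against 7.61 in log2 (FDR 0.151, authors' deposited table). None of the 3 reached an FDR of 0.05, and a test of the difference between them was not possible from group means. On chromosome 8 as a whole 85.0% of listed H3K9ac peaks were lower.

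**Figure D3:**
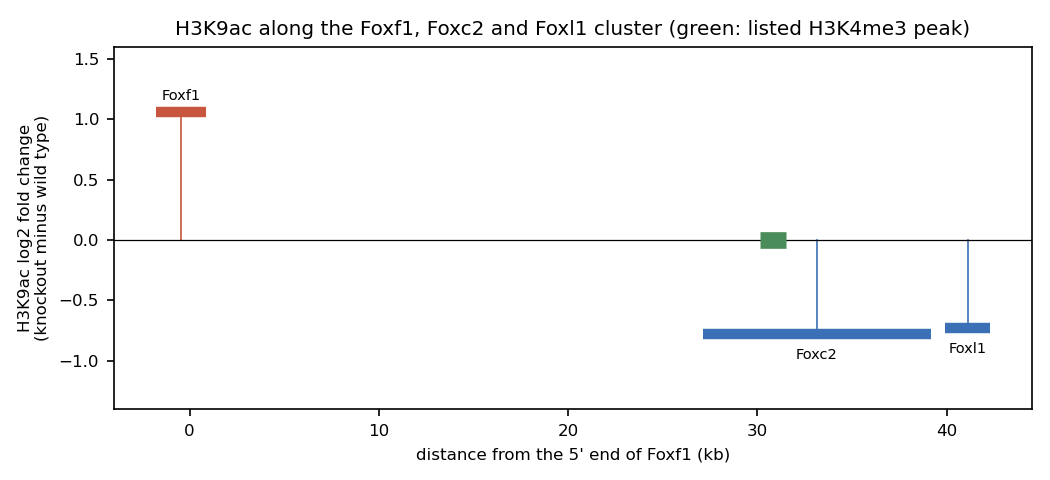
H3K9ac log2 fold change (knockout minus wild type, vertical axis, authors' values) of the 3 listed peaks of the Foxf1, Foxc2 and Foxl1 cluster against distance from the 5′ end of Foxf1 in kb; each bar spans its peak, red is higher, blue is lower, and the green bar at 0 is the listed H3K4me3 peak of Foxc2. Foxf1 stands at 1.06, and Foxc2 and Foxl1 at -0.78 and -0.73.

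Of 39 coding Hox genes, 4 had an H3K9ac peak and none had an H3K9me3 peak, where 18.1% and 5.52% of all coding genes had one. H3K4me3 was listed at 4 Hox genes as well, where 1.83% of all coding genes were listed. Nothing was listed in the HoxD cluster for any mark. In HoxA, Hoxa3 had a 3052 bp H3K9ac promoter peak with log2 means of 8.09 and 9.02 (FDR 0.118, authors' deposited table), and H3K4me3 peaks were listed at Hoxa3 and Hoxa4. In HoxB the directions were mixed. Hoxb3 was higher in intron 1, 8.41 against 7.52 (FDR 0.0722), whereas a small intergenic peak 3.05 kb from Hoxb8 was lower, 4.24 against 5.57 (FDR 0.104), in the authors' deposited table. The predicted gene Gm53, between Hoxb13 and the rest of the cluster, had 3 H3K9ac promoter peaks with log2 differences of 3.50, 3.91 and -1.66 and no FDR under 0.05 in the authors' deposited table. In HoxC, Hoxc5 was lower at its promoter, 4.82 against 5.74 (FDR 0.303, authors' deposited table).

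Chromosome 6 carried 18 of the 55 H3K9ac factor peaks, 12 of them in Foxp1, and 16 of the 18 were lower, as were 84.0% of all listed peaks there. The 2 factor peaks of chromosome 5, Nkx3-2 and Foxn4, were both higher, where 64.1% of all listed peaks were lower. On chromosome 11, where only 52.5% of listed peaks were lower, 4 factor peaks were lower and 2 higher.

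H3K9me3 was mostly higher at its listed factor peaks, which belonged to other genes than the H3K9ac peaks except at Foxp2 and Sox5. By the authors' deposited table, 17 of 22 factor peaks were higher in the knockout and 5 lower, which is 77.3% higher (exact 95% binomial interval 54.6% to 92.2%). Among all 5374 listed peaks 61.0% were higher, and 63.1% when the chromosomes were weighted as the factor peaks were, both inside that interval. No factor peak had an FDR under 0.05, and neither did any of the 5374 (0%). The smallest FDR was 0.302, at Dlx2, and the other 21 factor peaks had an FDR of 1, so each single difference below rests on an unadjusted p only. The signal was low: the median factor peak held 6.82 normalised reads, close to 6.68 for the table. Of the 197 coding genes 16 (8.12%) had a listed H3K9me3 peak, against 5.52% of all coding genes, and 6 (3.05%) had one at a promoter, against 1.15%. Promoters held 7 of the 22 peaks (31.8%, against 12.3% of all), and 6 of the 7 were higher (85.7%, against 69.8% of all promoter peaks).

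**Figure D4:**
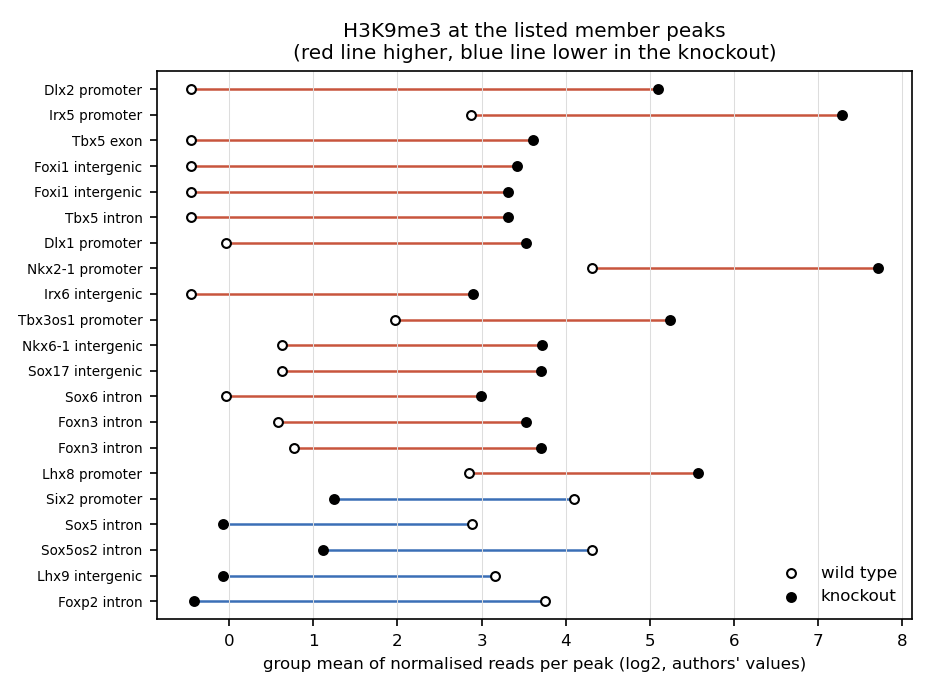
Group means of H3K9me3 at 21 of the 22 listed factor peaks, as log2 normalised reads per peak from the authors' deposited table; open circles are wild type, filled circles knockout, rows run from the most increased to the most decreased peak, and no error bars can be drawn because values per library are not in use. Red lines mark 16 higher and blue lines the 5 lower peaks, and 6 wild-type points stand at the lowest value of the table, -0.45.

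Per length, the factor genes with the most H3K9me3 were Nkx2-1, Irx5 and Lhx8, at 49.5, 41.9 and 33 normalised reads per kb in the authors' deposited table, all at promoters and all higher in the knockout. Next came Sox5os2 at 31.5, in an intron and lower in the knockout. Nkx2-1, the regulator of thyroid, lung and forebrain, had 209 normalised reads in the knockout and 19.8 in the wild type (log2 7.71 and 4.31, p 0.0272) in the authors' deposited table. Irx5, an Iroquois homeobox gene of heart and limb, had 156 and 7.31 reads (log2 7.29 and 2.87, p 0.0122) at chr8:92359015-92360960 in the authors' deposited table. These peaks ranked at 41 and 54 of 5374 by signal, and at 53 and 69 per kb, so they were among the strongest of the table even though their FDR was 1. Lhx8, a LIM homeobox gene of forebrain and germ cells, had log2 means of 5.57 and 2.85 (p 0.0301), and Tbx3os1 had 5.24 and 1.97 (p 0.0163), in the authors' deposited table. Tbx3os1 is a transcript that reaches over the start of Tbx3, but its peak lies 43.3 kb from that gene.

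The Dlx genes act in pairs in the branchial arches and forebrain, and Dlx1 and Dlx2 were both higher. Dlx2, at chr2:71544125-71545408, had 34.3 normalised reads in the knockout and 0.732, the lowest value that the table holds, in the wild type (log2 5.10 and -0.45, p 0.000277) in the authors' deposited table. A fold against that value is not a measured ratio. Dlx1 had log2 means of 3.53 and -0.04 (p 0.013) at a 359 bp peak in the authors' deposited table. The authors place that peak 1.14 kb from a start, but it lies 3.81 to 4.16 kb from the 5′ end of the 5.87 kb RefSeq gene. On their chromosome, 2, only 41.9% of listed H3K9me3 peaks were higher. Of the 301 lower peaks there, 63 belonged to 1 gene, Tshz2, so that share is partly set by its run of peaks.

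**Figure D5:**
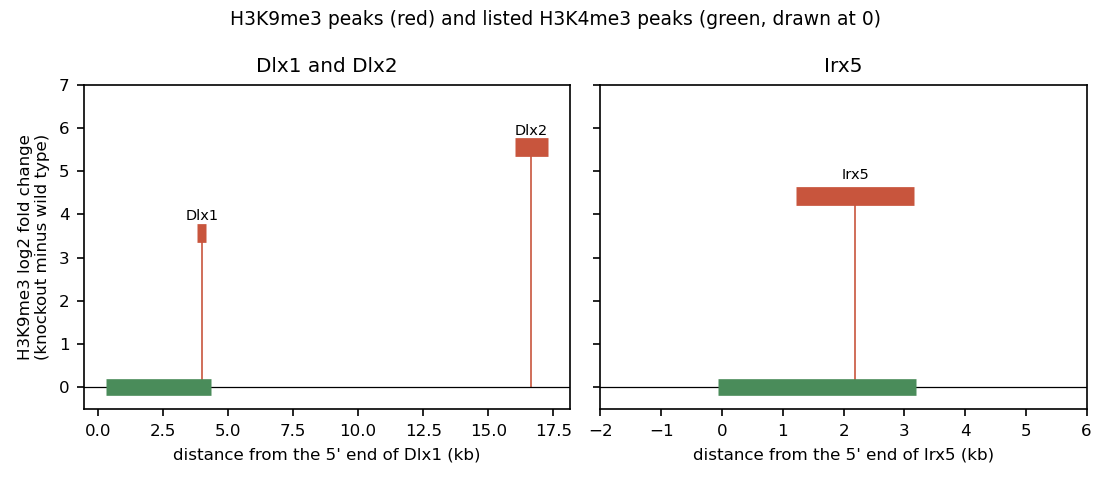
H3K9me3 log2 fold change (knockout minus wild type, vertical axis, authors' values) of the listed peaks at Dlx1 and Dlx2 (left) and Irx5 (right) against distance from the 5′ end of Dlx1 or Irx5 in kb; red bars span H3K9me3 peaks and green bars, drawn at 0, span listed H3K4me3 peaks, which have no direction. The H3K9me3 peaks of Dlx1 (3.57) and Irx5 (4.42) lie over H3K4me3 peaks, and that of Dlx2 does not. The bar of Dlx2, at 5.55, is set against a wild-type mean at the lowest value of the table and is no measured ratio.

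The remaining higher peaks were small, and several lay in runs. Across the stretch from Irx3 to Irx6, 8 H3K9me3 peaks were listed, at Irx5, Irx6 and 6 predicted genes, and all 8 were higher in the authors' deposited table. From Tbx3 to Tbx5, the latter a T-box gene of heart and forelimb, 5 were listed, all higher: 2 in Tbx5, at an intron and an exon with means of 3.31 and 3.61 in the knockout and -0.45 in the wild type, and 3 at 1700021F13Rik, in the authors' deposited table. On chromosomes 8 and 5 higher peaks made up 88.6% and 85.6% of all listed H3K9me3 peaks, the same direction as these runs. Foxi1, a forkhead gene of the inner ear and kidney, had intergenic peaks on either side, 8.63 kb and 8 kb away, with knockout means of 3.42 and 3.32 against -0.45 in the authors' deposited table. Nkx6-1, Sox17 (an endothelial and endoderm factor), Sox6 and, at 2 introns, Foxn3 had log2 differences from 2.94 to 3.08 in the authors' deposited table.

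The 5 lower H3K9me3 peaks were in Foxp2, Lhx9, Six2, Sox5 and Sox5os2. The knockout value was at the lowest of the table at Foxp2 (-0.42 against 3.75, p 0.00263, authors' deposited table). Sox5, a cartilage and neural Sox gene, had -0.07 against 2.89, and Sox5os2, whose peak lies inside Sox5, had 1.11 against 4.31, in the authors' deposited table. Lhx9 and Six2, homeobox genes of gonad and kidney, had log2 differences of -3.24 and -2.86 in the authors' deposited table. Foxp2, Sox5 and Sox5os2 are on chromosome 6, where 72.4% of all listed H3K9me3 peaks were lower. Foxp2 and Sox5 were the only factor genes listed for both H3K9ac and H3K9me3, and both marks were lower there, at separate peaks.

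H3K4me3 was listed at 15 factor peaks, 14 of them at promoters. Of the 197 coding genes 13 (6.60%) were in this table, against 1.83% of all coding genes, and 12 (6.09%) had a promoter peak, against 1.68%. The table gives no signal, direction or p, so it can be said only that the authors selected these peaks. They were Hoxa3, Hoxa4, Hoxb13 and Hoxc8 of the Hox clusters, Foxb2, Foxc2, Foxj1 (the regulator of motile cilia) and Foxp1 of the forkhead genes, Dlx1, Dlx6os1, Irx5, Pax2, Tbx15 and, with 2 peaks, Nkx2-3. Hoxc8 was the exception to the promoter rule, with a 569 bp peak 6.39 kb upstream of its start, outside the RefSeq span of the gene. The authors annotate that peak to a 3′ UTR, which is thus not that of the RefSeq Hoxc8 gene. The peak of Foxp1 was the widest of these at 5617 bp (rank 2 of 469), followed by Dlx1 at 4031 bp (rank 5) and Irx5 at 3271 bp (rank 13). Dlx6os1 is a transcript that runs across Dlx6, and its peak lies 2.22 kb from that gene.

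Factor genes made up 2 of the 3 places in the genome where listed H3K9me3 and H3K4me3 peaks overlapped by at least 1 bp. At Irx5 the overlap was 1946 bp, nearly the whole H3K9me3 peak, and at Dlx1 it was 358 bp, at the far end of a 4031 bp H3K4me3 peak from the start whose sequence is printed above. The third place was the predicted gene Gm50357. H3K9ac and H3K4me3 peaks overlapped in 72 pairs, 3 of them in factor genes: Hoxa3 (2175 bp), Foxc2 (1397 bp) and Tbx18 (298 bp, with an H3K4me3 peak annotated to D030062O11Rik). H3K9ac was lower at all 3, none with an FDR under 0.05, where 77.2% of all listed H3K9ac peaks were lower. No factor peak was among the 4 overlaps of H3K9ac with H3K9me3. Foxp1 was listed for H3K9ac and H3K4me3 too, but at separate peaks.

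RefSeq promoter windows, from 250 bases before to 50 after a start, could be matched to 38 of the 61 genes (49 windows). The median ratio of observed to expected CpG was 0.70 in the windows of genes with listed H3K9ac, 0.54 with H3K4me3 and 0.29 with H3K9me3, against 0.57 in all coding genes. These factor genes had a listed peak of the mark at any annotation, promoter or not. Among all genes with a listed promoter peak of the mark, a set chosen more narrowly, the medians were 0.66 for H3K9ac, 0.75 for H3K4me3 and 0.47 for H3K9me3. The factor value for H3K9me3 comes from 17 windows of 12 genes, and genes with several windows count more than once. Exact matches on either strand were counted for motifs of these families. TAATTA, a homeodomain core, was in 10.2% of the windows against 4.53% of all coding windows, and TGACAG, bound by Meis proteins, in 22.4% against 18.7%. The Sox motif ACAAAG was in 38.8% against 16.8%, and in 13 of 38 genes (34.2%) against 19.1% of all genes, while the other Sox motif, ACAATG, was in 10.2% against 11.0%. The Gata motif AGATAA was in 12.2% against 9.65%, and the forkhead motif GTAAACA in 2.04% against 3.01%. The T-box motif AGGTGTGA was in 0 of 49, against 1.15%, and the GC box GGGCGG in 51.0% against 46.2%. A window from 100 bases before the start turned the order of factor and all coding windows for the Meis motif, the Sox motif ACAATG and the GC box. Of the sequences printed above, both Gata2 stretches hold GGGCGG, Nkx3-2 holds TGACAG and GGGCGG, and Hoxa3 holds TGACAG and ACAAAG. A match describes letters in the window only.

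Partner and regulator genes outside these families were searched for in a list of 144. In the authors' deposited table, 34 of them had listed H3K9ac peaks, 40 of 44 peaks being lower (90.9%, against 77.2% of all listed peaks), 3 with an FDR under 0.05. Across the table, 18.1% of coding genes were listed, and 16.6% of listed peaks had such an FDR, which are the shares to set beside the counts that follow. Of the 8 partners of Hox proteins, Pknox2 was lower at its promoter (log2 8.18 and 9.71, FDR 0.00708) and Pbx4 by -0.72 (FDR 0.155) in the authors' deposited table. Other homeobox genes had 6 of 58 listed, 5 lower, with Hhex the higher one. Mesoderm and neural crest factors had 14 of 37 genes listed and 16 of 18 peaks lower. Among them Osr1 was lower by -0.93 (FDR 0.0246), and Mef2c, a muscle and vascular regulator, was higher by 2.94 (FDR 0.172), in the authors' deposited table. Polycomb genes, whose products silence many of the factor genes in other tissues, had 8 of 27 listed and 11 of 12 peaks lower, Cbx8 by -1.27 (FDR 0.0294) in the authors' deposited table. Trithorax genes, whose products write H3K4 methylation or bind with its writers, had 4 of 14 listed, all 6 peaks lower and none with an FDR under 0.05. For H3K9me3, 14 of the 144 genes held 86 peaks, 67 lower and 19 higher in the authors' deposited table. Most were from 1 gene, Tshz2, with 63 peaks, so the peak counts of this list say little of its other genes. By gene, 5 were lower and 9 higher.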

How the data were processed

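H3K9ac, H3K9me3 and H3K4me3 ChIP-seq of wild-type and CSE knockout smooth muscle cells was available as 3 tables of peaks, 1 for each mark, with no value per library. Per the file headers, the authors give for H3K9ac and H3K9me3 log2 mean normalised reads of each genotype and of both together. The deposited tables add the log2 fold change and its p-value with an FDR. The log2 fold change equalled knockout minus wild type within 0.015 for all peaks of both marks. The submitters' processing notes name CASAVA 1.4 and mm9. The aligner, peak caller, normalisation method and test were not given in the sources used here, and depth is unknown. Of the deposited peaks 276 of 469 for H3K4me3 (58.8%), 983 of 8115 for H3K9ac (12.1%) and 152 of 5374 for H3K9me3 (2.83%) lay within 1 kb of a start in the RefSeq table of GRCm38.p6. The build was not settled further, and positions are printed as deposited and read as GRCm38.

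Factor genes were found by symbol. No test was made here, since group means allow none: calls are the authors', shares have exact 95% binomial intervals that cover counting error only, and all listed peaks give the background. No listed peak has a p under 0.0001, and peaks below that are not analysed here. Reads are 2 to the power of the deposited log2 value, divided by peak width for reads per kb. Overlaps needed 1 bp. RefSeq windows ran from 250 bases before to 50 after a start. Functions were tested on simulated data.

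The members, gene lists and rules were chosen with earlier results of these data known. Genes named are the 6 of smallest p per mark and direction, those with 3 or more peaks of a mark, those in 2 tables, the H3K4me3 genes, the best of each family, all Hox genes, and up to 6 genes of the other lists per mark. Genes outside this rule were picked with their values in view. Results for some genes are not reported here by name, and their peaks are in the counts but not in the plots. Alternatives were a stricter p or FDR, promoter peaks, distance to a start, fold, signal, 1 peak per gene, other overlaps and a shorter window. Added after seeing the data were leaving out Foxp1 or chromosome 6 and taking coding genes only. Python 3.11.15, numpy 2.4.6, pandas 2.3.3, scipy 1.17.1 and matplotlib 3.10.9 were used.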

Additional observations from a re-analysis of the deposited data

How the results depend on the processing

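No paired analysis was possible because the tables hold group means without a value per library, and for the same reason no library could be left out in turn. The share of H3K9ac factor peaks that were lower stayed between 75.0% and 86.2% under every alternative tried, against 80.0%. The count of lower H3K9ac peaks, 44 in all, followed the number of peaks kept: 21 at p under 0.01, 10 at FDR under 0.05, 28 at promoters, 25 within 1 kb and 28 within 3 kb of a start, 27 with each gene once and 28 without chromosome 6. The 5 lower of 22 H3K9me3 peaks became 1 of 6 at p under 0.01 and 1 of 7 at promoters. They became 1 of 7 within 3 kb of a start and 2 of 19 without chromosome 6. At FDR under 0.05 no H3K9me3 factor peak was left, so the 0 there gives no direction. Within 1 kb of a start 0 of 4 H3K9me3 peaks were lower (0%), and with a log2 signal of at least 3 in the lower group 0 of 1 (0%). In windows from 100 bases before the start, TGACAG was in 8.16% (all coding windows 9.62%), GTAAACA in 0% (1.29%), ACAAAG in 20.4% (7.73%), ACAATG in 6.12% (5.14%) and GGGCGG in 34.7% (38.3%). TGACAG and GGGCGG thus went from above to below all coding windows and ACAATG from below to above, while ACAAAG stayed above. Among the counts by mark, lower H3K9ac and higher H3K9me3 peaks stayed the majority wherever peaks were left. The unknown depth leaves the precision of each group mean open, most of all at H3K9me3 peaks near the lowest value of the table.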
